A study of Mus musculus with 2 samples.

Results

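The mitochondrial ribosomal protein genes are the nuclear genes for the protein part of the ribosome inside mitochondria. They were taken as the protein-coding genes whose symbol starts with Mrpl or Mrps followed by a number, which gave 78 genes, of which 77 had a row of their own in the gene tables, out of 21474 protein-coding genes with a row. The rule uses no expression value. By the standard naming of the mammalian particle, 50 of the 77 belong to the large subunit and 26 to the small subunit. Despite its name, Mrps36 is now known as part of a metabolic enzyme complex and was kept apart from both. Mrps18a and Mrps30 carry small-subunit names but sit in the large subunit, and were counted there.

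The tissue was hindbrain, the cerebellum, pons and medulla, of healthy newborn mice (postnatal day 0) of strain B6NTac;B6NCrl/Lap, untreated and of no engineered genotype named in the labels. Total RNA depleted of ribosomal RNA and over 200 nt in size was sequenced as stranded read pairs with spike-in RNA, in 2 libraries that form a single group. Each library came from pooled male and female animals, 15 mice for replicate 1 and an unstated number for replicate 2. The labels call them separate isolates but give both the same donor identifier, and part of their spread may be technical. No p-value is given, since an exact sign-flip test of 2 libraries has 0.5 as its smallest p. The libraries held 54313140 and 77142270 expected counts, the fragment counts assigned to genes by the authors' quantifier. All 10 hindbrain marker genes reached 1 TPM (transcript abundance per unit of length, scaled to a fixed total) in both libraries, against 1 of 6 forebrain markers, Neurod6, with 6.77 and 4 TPM, while Dlx5 and Dlx6 were at 0. In bulk tissue, fewer cells of a type and less RNA per cell cannot be told apart.

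Mitochondria keep a small genome that encodes core subunits of the respiratory chain, and a dedicated ribosome translates them. Its ribosomal RNAs come from mitochondrial DNA, whereas every one of its proteins is encoded in the nucleus, made in the cytosol and imported. Compared with bacterial ribosomes, the particle has less RNA and more protein: some of its proteins have a bacterial counterpart (the conserved members) and others do not (the mitochondria-specific members). In brain, loss of mitochondrial translation impairs oxidative phosphorylation, on which neurons depend. Nuclear genes for mitochondrial proteins are known targets of the factors NRF1, GABP (an ETS family factor also called NRF2) and YY1.

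The 100 bases before the RefSeq transcription start of 7 members are shown because they hold, in capitals, whole matches to the NRF1 motif CGCATGCG (in Mrpl9 and Mrpl22) or the ETS motif CCGGAAG (in all but Mrpl9). They are written 5′ to 3′ on the strand of the gene and end with the base before the start. The build is GRCm38.p6, and the windows lie at chr3:94443236-94443335, plus strand (Mrpl9), chr11:58171564-58171663, plus strand (Mrpl22), chr8:71464826-71464925, plus strand (Mrpl34), chr19:45006443-45006542, minus strand (Mrpl43), chr11:115403652-115403751, plus strand (Mrpl58), chr17:46110904-46111003, plus strand (Mrps18a) and chr9:98601680-98601779, minus strand (Mrps22). By the gene annotation at most 18 of the 100 bases of each window lie inside an annotated exon. The Mrpl9 and Mrpl43 windows lie within the gene bodies of the opposite-strand genes Oaz3 and Twnk.
Mrpl9: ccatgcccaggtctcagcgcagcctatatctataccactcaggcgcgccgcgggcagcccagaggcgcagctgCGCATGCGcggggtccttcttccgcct
Mrpl22: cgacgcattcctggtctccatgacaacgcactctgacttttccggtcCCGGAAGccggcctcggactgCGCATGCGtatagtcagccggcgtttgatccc
Mrpl34: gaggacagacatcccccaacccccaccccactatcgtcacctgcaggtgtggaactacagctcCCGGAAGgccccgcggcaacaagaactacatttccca
Mrpl43: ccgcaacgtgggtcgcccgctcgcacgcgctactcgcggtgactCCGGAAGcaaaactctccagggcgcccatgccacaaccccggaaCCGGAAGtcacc
Mrpl58: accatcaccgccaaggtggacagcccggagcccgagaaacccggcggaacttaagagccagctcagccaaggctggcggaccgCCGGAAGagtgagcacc
Mrps18a: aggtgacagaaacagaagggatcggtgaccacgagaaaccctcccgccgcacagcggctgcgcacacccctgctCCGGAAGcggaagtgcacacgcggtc
Mrps22: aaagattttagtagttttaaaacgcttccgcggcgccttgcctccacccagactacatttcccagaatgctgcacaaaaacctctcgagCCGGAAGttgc

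Each of the 3 mitochondrial motifs was more common in the members' promoters than in those of coding genes. The ETS motif, the shortest of them, was the most common in both. RefSeq promoter windows, from 250 bases before to 50 bases after a start, were found for 69 of the 78 members, with 75 windows because 3 members have more than 1. The ETS motif (CCGGAAG, or CTTCCGG on the other strand) was in 26 of the 75 windows (34.7%), compared with 11.9% of 20150 windows of all coding genes and 16.7% of 11982 windows of coding genes at 1 TPM in both libraries. The NRF1 motif, which reads the same on both strands, was in 7 windows (9.33%, against 2.62% and 3.74%). The YY1 motif (AAGATGGCG, or CGCCATCTT on the other strand) was in 8 windows (10.7%, against 1.93% and 2.98%). At least 1 of these 3 was in 36 windows (48.0%, against 15.4% and 21.8%).

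The matches differed in place. Of the 31 ETS matches, 22 began before the start and 9 after it, and all 8 NRF1 matches began before it. Of the 8 YY1 matches 6 began after the start, in Mrpl35, Mrpl37, Mrpl42, Mrps18a, Mrps24 and Mrps27. Mrpl17, Mrpl22 and Mrps18b held both an NRF1 and an ETS match, and Mrps18a and Mrps27 both an ETS and a YY1 match. Mrpl43, Mrpl52, Mrpl53, Mrpl58 and Mrps16 held more than 1 ETS match. Only 1 pair of motifs overlapped, in 2 cases where an ETS match shared bases with a GC box.

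The other 5 motifs searched, which are common in promoters of many kinds, were found at shares within or near the range of both backgrounds. The GC box (GGGCGG) was in 52.0% of the members' windows, against 47.8% of all windows and 63.8% of those of genes at 1 TPM. The box CCAAT was in 40.0%, against 37.8% and 37.2%, and the E-box CACGTG in 9.33%, against 8.03% and 9.76%. The cyclic AMP element TGACGTCA was in 2.67%, against 2.31% and 2.96%, and TATAAA in 6.67%, against 12.2% and 6.60%. All were searched on both strands, and the median GC content of the windows was 58.7% for members, 57.0% for all and 61.3% for genes at 1 TPM. A match is a run of letters and does not show that a factor binds. The 25 measured members with an ETS match had median levels of 17.1 and 9.29 TPM in replicates 1 and 2, and the 43 with a window but no ETS match 9.52 and 8.27 TPM, so the gap was larger in replicate 1.

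**Figure D1:**
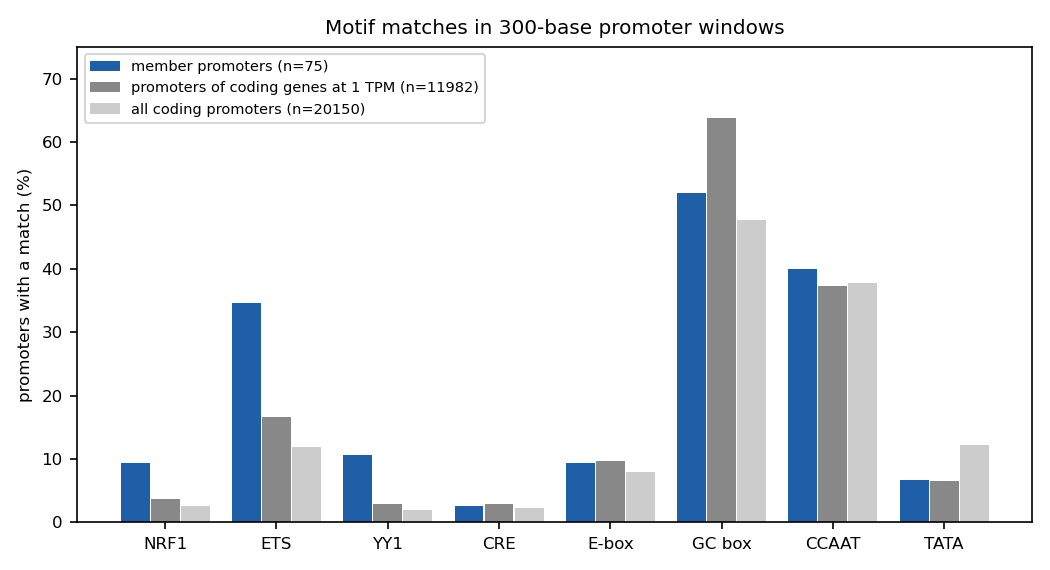
Share of promoter windows (%, bars) with at least 1 match to each motif, for members, for coding genes at 1 TPM in both libraries and for all coding genes. The NRF1, ETS and YY1 bars of the members stand above both backgrounds (34.7% for ETS against 16.7% and 11.9%), while the E-box and CCAAT bars are close to them.

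Every measured member was expressed in newborn hindbrain, at moderate levels. All 77 reached 1 TPM in both libraries, where 54.6% of 21461 nuclear protein-coding genes did, 58 reached 5 TPM in both and 31 reached 10. The shares of all coding genes at 5 and 10 TPM were not computed. The median member had 11.1 TPM in replicate 1 and 8.62 in replicate 2. This was slightly above the median of 9.52 and 6.57 over the 11725 nuclear coding genes at 1 TPM in both libraries. In expected counts, which are not divided by length, the order was the other way. The median of the mean count was 882 for members and 2191 for those genes. Mean levels ran from 1.10 to 48.9 TPM, a 44.6-fold range that rests on the replicate 1 value of Mrpl48. Without that gene the highest mean was 41.6 TPM, of Mrpl58, and the range 37.98-fold. Most of the TPM of Mrpl58 was that of a short transcript, Mrpl58-204 (363 nt), with 45.4 and 15.4 TPM on 189 and 172 counts. In replicate 2 alone the range over all 77 was 26.5-fold. The middle of the distribution was narrower, with quartiles at 6.13 and 15.2 TPM. The SD over genes of log2(mean TPM + 0.1) was 1.07 for members, against 1.57 for the coding genes at 1 TPM. Together the members took 0.123% and 0.126% of the counts on mouse genes.

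TPM values of members were higher in replicate 1 in 68 of 77 genes, a share not computed for all coding genes. The same offset was present across the tissue: the median of the replicate 1 to replicate 2 TPM ratio was 1.38 over members and 1.44 over coding genes at 1 TPM. The SD of a TPM therefore includes this shared offset. The order of the members was similar in both libraries, with a Spearman rho of 0.89 over 77 genes that share their libraries and annotation.

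Among large-subunit genes, Mrpl48 and Mrpl58 had the highest mean TPM and Mrpl19 the lowest. Mrpl48 (chromosome 7, 100545751 to 100608301, mm10), a protein of the central protuberance, had 91.1 TPM in replicate 1 and 6.65 in replicate 2. These values lie further apart than for any other member, 13.7-fold. Mrpl58 (chromosome 11, 115403752 to 115412674), a peptidyl-tRNA hydrolase that became a subunit and frees stalled chains, had 56.8 and 26.4 TPM. Mrpl28 (chromosome 17, 26123500 to 26126613), a conserved protein, had 30.5 and 26.3 TPM. It was the highest large-subunit gene in which the libraries were close in TPM. The mitochondria-specific Mrpl54 had 29.6 and 21.7 TPM and Mrpl52 30.8 and 20.3. The conserved Mrpl34 had 21.5 and 26.4, and was one of only 9 members with the higher TPM in replicate 2.

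By mean TPM, the 6 lowest large-subunit genes all have a bacterial counterpart, as do 29 of all 50 large-subunit genes. This order depends on dividing by length. By mean counts scaled to the library total, Mrpl17 and Mrpl1 ranked 26 and 28 of 77 members, from the highest down. Mrpl35, Mrpl19, Mrpl47 and Mrpl16 ranked 54, 64, 73 and 77. The mitochondria-specific Mrpl40 and Mrpl52 ranked 70 and 76 on that scale. Mrpl19 (chromosome 6, 81957851 to 81965958) had 1.19 and 1.00 TPM, Mrpl47, near the exit of the peptide tunnel, 1.22 and 1.42, and Mrpl35 1.67 and 1.59. In these 3 the TPM values of the libraries nearly coincided and lay far below the median member. After scaling counts for depth, their log2 ratios of replicate 2 to replicate 1 were −0.02, 0.19 and 0.44, in the same order. Mrpl16, a conserved protein of the large subunit, had 3.94 and 1.59 TPM, a wider gap. Mrpl17 had 3.25 and 3.85, and Mrpl1, which forms the mobile L1 stalk, 4.68 and 2.63. Low TPM did not always mean few reads: Mrpl17 had 941 and 1336 expected counts and Mrpl1 991 and 1203. Mrpl16, with 261 and 217, had the fewest on average of all members, and Mrpl47 had 294 and 479 and Mrpl35 465 and 899. Mrpl19 had 457 and 643 expected counts over an effective length of 4686 and 3879 nt. The effective length is the number of positions at which a fragment can start. Mrpl52, one of the highest by TPM, had 248 and 392 counts over 98.5 and 117 nt.

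In the small subunit, Mrps21, Mrps17 and Mrps16, all conserved, were highest. Mrps21 (chromosome 3, 95862634 to 95871519) had 41.0 and 24.8 TPM, Mrps17 (chromosome 5, 129715497 to 129722556) 34.5 and 22.6, and Mrps16 (chromosome 14, 20389304 to 20393634) 27.4 and 26.5. In TPM, replicate 1 was the higher in each, by little for Mrps16. After scaling counts for depth, Mrps16 was instead higher in replicate 2, with 565 and 1186 counts (log2 ratio of replicate 2 to replicate 1 of 0.56). Mrps12, the decoding-centre protein whose bacterial counterpart is the site of streptomycin resistance mutations, had 25.2 and 12.7 TPM. Mrps26 had 21.04 and 12.96 TPM and Mrps24 15.1 and 10.9.

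The small-subunit genes had no members as low as the 3 lowest of the large subunit. The lowest, Mrps14, had 2.05 TPM in replicate 1 and 3.23 in replicate 2. The mitochondria-specific Mrps31 had 4.97 and 2.67 TPM and Mrps27, a pentatricopeptide repeat protein, 4.35 and 3.34. Mrps33 had 4.10 and 5.60, with the higher value in replicate 2 as for Mrps14. The conserved Mrps9 had 5.90 and 5.05 TPM and the mitochondria-specific Mrps25 9.41 and 2.84.

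**Figure D2:**
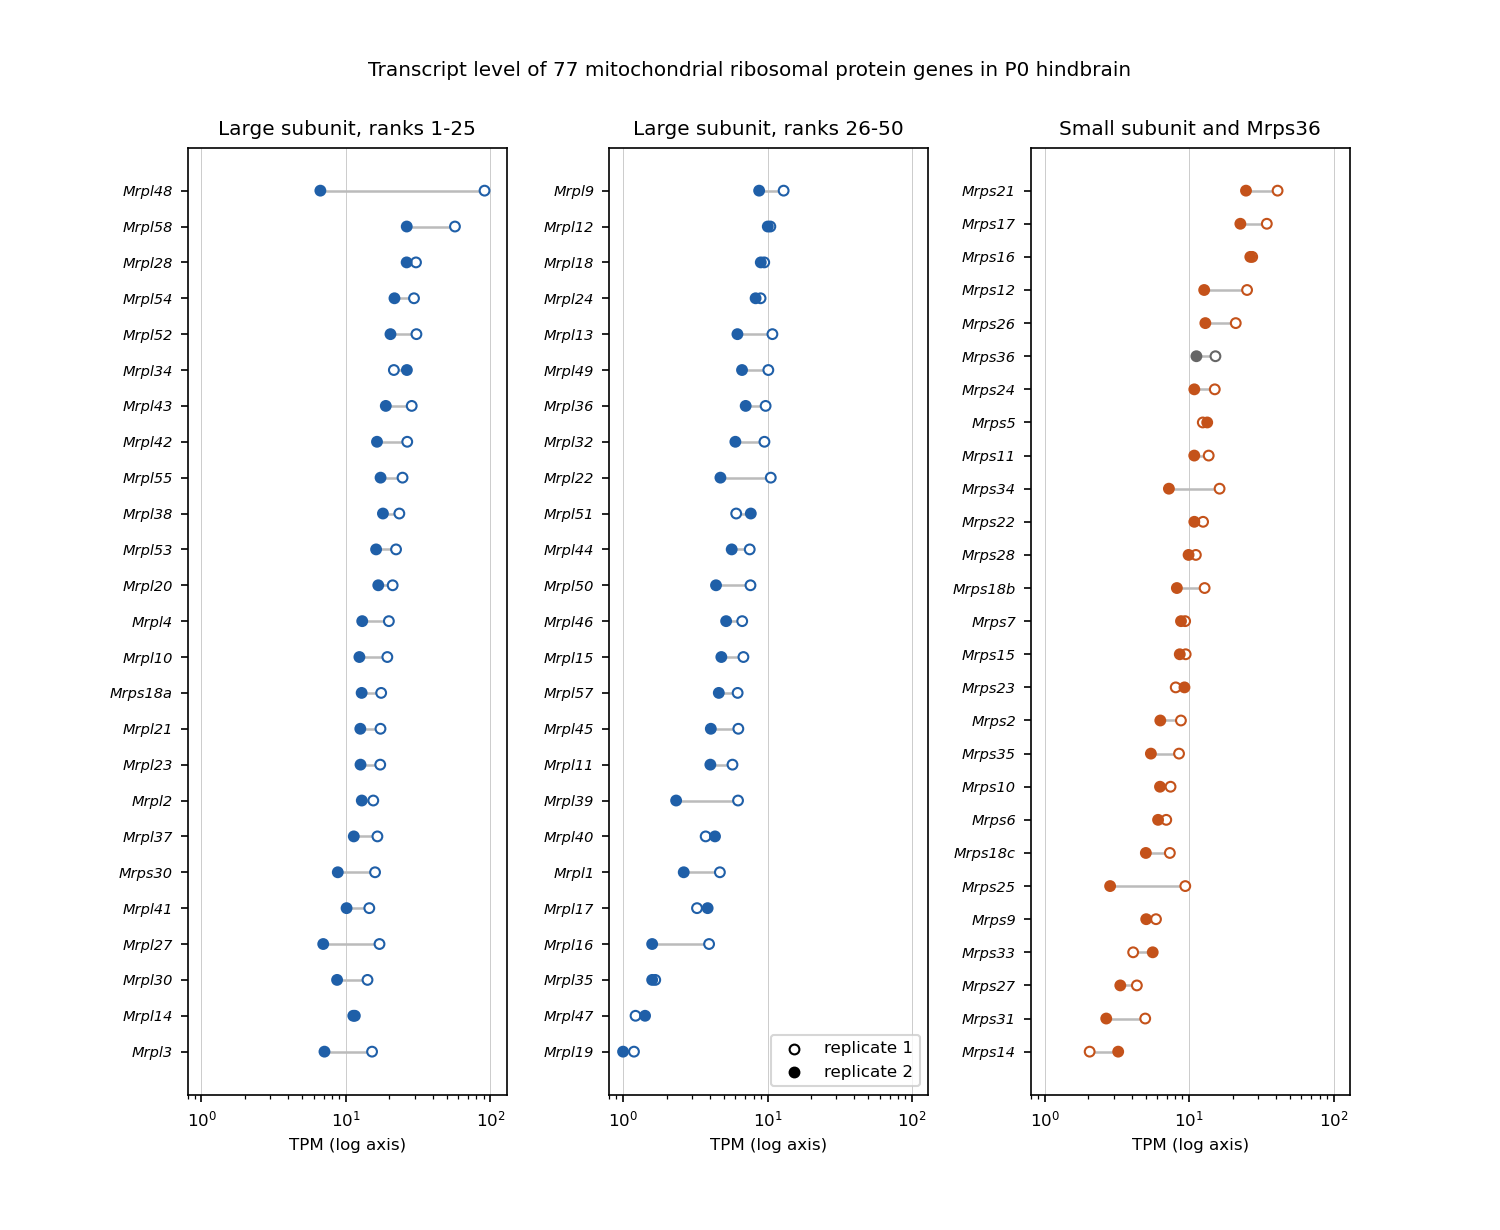
TPM (log axis) of the 77 measured members in replicate 1 (open) and replicate 2 (filled), sorted by mean TPM within the large subunit (blue, 50 genes) and the small subunit (orange, 26 genes, with Mrps36 in grey). Most open points lie to the right of the filled ones, Mrpl48 has the widest gap (91.1 against 6.65 TPM), and Mrpl19, Mrpl47 and Mrpl35 sit lowest.

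In TPM, the difference between the subunits was within the spread of the libraries. The median large-subunit gene had 12.2 and 8.48 TPM and the median small-subunit gene 9.44 and 8.43. On the log2(TPM + 0.1) scale the difference, large minus small, was 0.37 in replicate 1 and 0.01 in replicate 2 (mean 0.19 ± 0.25, SD, n = 2). In counts scaled to the library total, not divided by length, it was 0.27 and 0.12 (mean 0.19 ± 0.11), beyond that spread. The 45 conserved members had medians of 10.8 and 8.68 TPM and the 31 mitochondria-specific ones 12.5 and 7.66. Their difference, conserved minus specific, was −0.21 in replicate 1 and 0.18 in replicate 2, so it changed sign between libraries (mean −0.01 ± 0.27). In the scaled counts it was −0.35 and −0.12 (mean −0.24 ± 0.16), with the same sign in both.

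The 3 genes named Mrps18 encode paralogues at different places in the particle, with Mrps18a in the large subunit and Mrps18b and Mrps18c in the small one. Mrps18a had 17.5 and 12.8 TPM, Mrps18b 12.8 and 8.23, and Mrps18c, the closest relative of the bacterial protein, 7.36 and 5.02. The order was the same in both libraries and the ranges did not overlap, though the lower value of Mrps18a (12.84) and the higher value of Mrps18b (12.81) nearly met. The place of Mrps18c rests on the kind of TPM. By the posterior mean TPM deposited beside these values it had 22.2 and 11.2, with deposited intervals of 7.91 to 42.9 and 5.18 to 19.1, and its mean of 16.7 was then above those of Mrps18a (15.3) and Mrps18b (10.8).

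Genes of the particle that the name rule leaves out were at similar levels. All 5 on a list of such genes reached 1 TPM: Chchd1 had 33.97 and 27.03 TPM, Aurkaip1 30.6 and 27.4, and Dap3, a GTP-binding protein of the small subunit, 15.0 and 13.3. Gadd45gip1 and Ptcd3 had mean levels of 7.87 and 6.60 TPM. Mrpl33, the member without a row of its own, had its transcript listed under another gene identifier, with 18.02 and 13.97 TPM and 243 and 421 counts. It is not among the 77. Mrps36 had 15.2 and 11.2 TPM. The 2 mitochondrial ribosomal RNAs had 47510 and 28115 TPM (mt-Rnr2) and 7796 and 6732 TPM (mt-Rnr1), values left after ribosomal RNA depletion and so no measure of their amount in the tissue.

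The members were lower than both of the gene groups most like them. The median gene of the 77 for the cytosolic ribosome had 135 TPM in replicate 1 and 90.6 in replicate 2, and the median of the 84 measured nuclear genes for respiratory chain and ATP synthase subunits 55.4 and 41.9. On the log2(TPM + 0.1) scale the members were lower than the cytosolic ribosomal proteins by 3.59 and 3.38, a mean difference of −3.48 ± 0.15 (SD, n = 2) or 11.2-fold. They were lower than the respiratory chain subunits by 2.30 and 2.27, a mean of −2.29 ± 0.03 or 4.87-fold. Both differences exceeded the spread between libraries many times over, and their sizes rest on dividing by length: in CPM (counts scaled to the library total, with no allowance for length) they were −2.66 ± 0.10 and −1.28 ± 0.15. The members' levels were also more alike, with an SD over genes of 1.07 against 1.44 for the cytosolic set and 2.60 for the respiratory chain set, where 6 of 84 genes were under 1 TPM in a library, Cox7a1, Cox7b2, Cox8b and Cox8c among them with 0 TPM in replicate 1.

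Other nuclear genes of mitochondrial gene expression were at or below the level of the ribosomal proteins per unit of length. All 16 translation factor genes were at 1 TPM or more in each library, led by Slirp (27.02 TPM on average, a binder of mitochondrial messenger RNA), Pdf (15.1, the peptide deformylase) and Tufm (14.9, the elongation factor Tu), with Mtrf1l (2.19) and Mtrf1 (1.13) lowest. All 17 mitochondrial aminoacyl-tRNA synthetase genes did so, led by Vars2 (9.70), Iars2 (8.89) and Yars2 (8.195), with Nars2 (2.10) and Wars2 (1.73) lowest. Of 26 genes for assembly of the particle and modification of its RNA 25 did, led by Malsu1 (13.8), Rbfa (13.0) and Dhx30 (11.5), with Tfb1m (1.34) and Ybey (1.04, with 0.870 in replicate 2) lowest.

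Genes for copying and transcribing mitochondrial DNA were lower still. Of 12 such genes 9 were at 1 TPM or more in each library, led by Polg (17.9 TPM on average, the DNA polymerase), Polrmt (7.75, the RNA polymerase) and Tfb2m (3.69), with Mterf1a (0.375) and Mterf1b (0.0800) lowest. The median member exceeded the median translation factor by 0.57 ± 0.24 on the log2 scale (SD, n = 2), the synthetases by 1.03 ± 0.25, the assembly genes by 1.15 ± 0.12 and the mitochondrial DNA genes by 2.06 ± 0.31. In CPM these differences became, in the same order, −0.01 ± 0.06, −0.45 ± 0.20, 0.38 ± 0.16 and 0.90 ± 0.39, so those against the translation factors and the synthetases were no longer above 0. The factors named with the promoter motifs were present: Nrf1 had 20.0 and 15.0 TPM, Gabpa, the ETS subunit of GABP, 5.69 and 2.84, and Yy1 8.94 and 5.90. Of the 11 nuclear regulators listed, 10 reached 1 TPM in both libraries, Esrra (13.9 on average) and Mycn (12.7) being next after Nrf1, with Gabpb2 (2.12) and Ppargc1b (1.58) lowest.

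**Figure D3:**
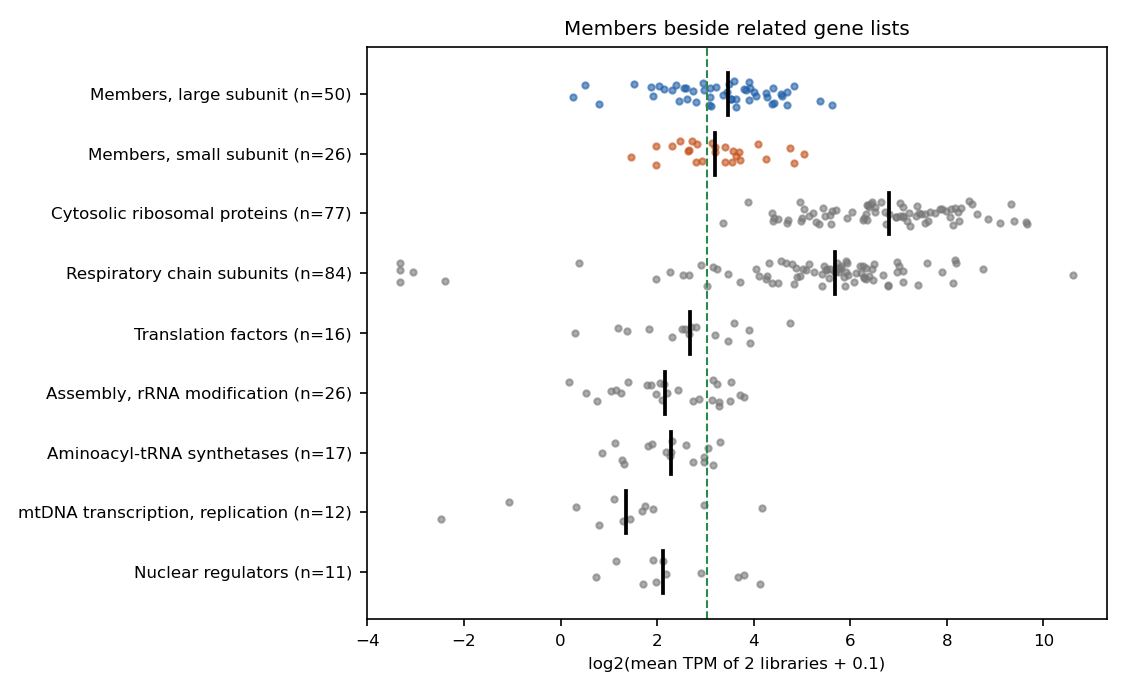
Level of each gene, as log2(mean TPM of 2 libraries + 0.1), for the members and 7 related lists, with black bars at the median of each list and a dashed line at the median of coding genes at 1 TPM (3.04). The cytosolic ribosomal proteins and respiratory chain subunits centre to the right of both subunits' members, and the other lists to the left.

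After scaling for depth, most members were within 1.5-fold between the libraries. The log2 ratio of replicate 2 to replicate 1, from expected counts with TMM scaling, had a median of 0.09 over the 77 members with an SD over genes of 0.34. It was above 0 in 46 and below 0 in 31. Of 11724 coding genes at 1 TPM in both libraries, 5636 were above 0 and 6088 below. Over 1.5-fold higher in replicate 2 were 4 members (5.19%, where 11.1% of 15314 coding genes averaging at least 10 counts were), and over 1.5-fold lower 2 members (2.60%, where 7.86% were). Among the 11724 of those genes that were also at 1 TPM in both libraries, as all members were, the shares were 4.09% higher and 2.56% lower, close to those of the members. Many of the 15314 coding genes have fewer counts than any member. The lowest mean count of a member was 239 and the median 882, against a median of 2191 for coding genes at 1 TPM in both libraries.

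The 6 members past 1.5-fold came from both subunits. Mrps33 had 266 and 751 counts and a log2 ratio of 0.98, Mrps15 360 and 972 counts (0.92), and Mrpl34 582 and 1525 (0.88). Mrpl40, of the central protuberance, had 266 and 637 counts (0.75). Lower in replicate 2 were Mrpl16 with 261 and 217 counts (−0.77) and Mrpl27 with 618 and 527 (−0.74), although replicate 2 was the deeper library. The next in each direction were Mrps16 (0.56) on the high side and Mrpl30 (−0.46), Mrpl13 (−0.44) and Mrps12 (−0.41) on the low side. Counting error alone was small, with a standard error of 0.04 to 0.13 per gene, and 47 members lay further from 0 than 2 such errors. The share of all coding genes that did so was not computed. With 1 library on each side, such ratios describe these libraries and have no replicate check.

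**Figure D4:**
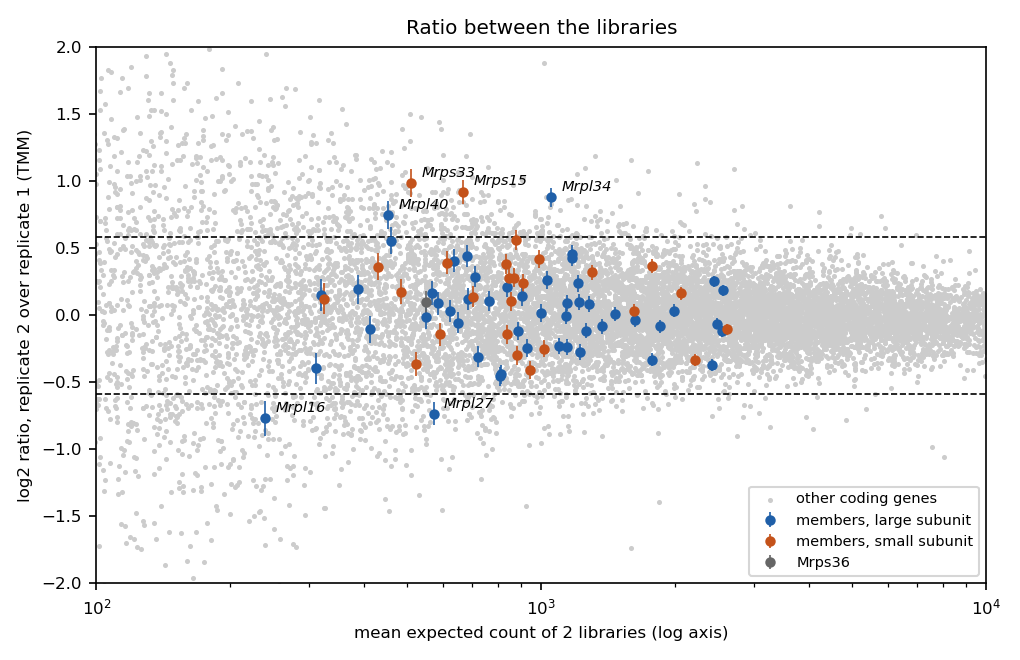
Log2 ratio of replicate 2 to replicate 1 (TMM) against mean expected count (log axis) for members (large subunit blue, small subunit orange, Mrps36 grey, bars 1 standard error of counting) and other nuclear coding genes (light grey; points outside the axes are not drawn). Dashed lines mark 1.5-fold, and the 6 labelled members lie beyond them.

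Wide gaps in TPM were not always matched by wide gaps in scaled counts. TPM differed over 2-fold between libraries in 9 members (11.7%, where 7.37% of coding genes at 1 TPM did): Mrpl48, Mrps25, Mrpl39, Mrpl16, Mrpl27, Mrps34, Mrpl22, Mrpl58 and Mrpl3. Of these only Mrpl16 and Mrpl27 were past 1.5-fold in scaled counts. The other 7 were within 1.5-fold in scaled counts. These measures are not alike: the cutoffs differ, and TPM holds the offset toward replicate 1 shared across genes (median ratio 1.44 over coding genes at 1 TPM). The effective length assigned to the gene differed over 1.5-fold between libraries in 6 members (7.79%, against 4.35%). Of the 9 members above, only Mrpl48, Mrps25 and Mrpl39 were among them.

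Mrpl48 was the clearest case. Its counts were 817 and 1177, a log2 ratio of 0.02, but its effective length was 110 nt in replicate 1 and 1071 in replicate 2. In replicate 1 the authors' transcript table gave 22.5 of the 817 counts to the short transcript Mrpl48-209 (274 nt), which with an effective length of 3.33 nt became 82.4 TPM, or 90.5% of the gene. In replicate 2 that transcript had 0 counts, and Mrpl48-207 led with 41.0%. Counting only transcripts with an effective length of at least 100 nt, Mrpl48 had 4.74 and 6.58 TPM and ranked 60 of 77. Mrpl28, Mrps16, Mrpl54 and Mrps17 were then the highest members. This limit also took out the only transcript of Mrpl52 (98.5 nt in replicate 1), which left that gene at 0 TPM. Mrps25 (effective length 1197 and 2350 nt, counts 923 and 1104) and Mrpl39 (1308 and 1998 nt, counts 669 and 768) also differed in effective length. Unlike for Mrpl48, their gaps remained with the same limit on transcripts, at 9.41 and 2.84 TPM for Mrps25 and 6.24 and 2.33 for Mrpl39. The members' TPM fell with effective length (Spearman rho −0.65 over 77 genes, against −0.17 over 11725 coding genes at 1 TPM), a relation in which length enters both measures.

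Most members were represented by a protein-coding transcript, but 12 were led by another class in at least 1 library. The tables listed 275 transcripts for the members, and 19 members had 1 only. The same transcript had the highest share of TPM in both libraries in 69 members (89.6%, against 85.9% of coding genes at 1 TPM). Whether or not it was the same one, the transcript with the highest share of TPM was protein-coding in both libraries in 65 members (84.4%, against 90.5%), and that with the highest share of counts in 72 (93.5%, against 95.5%). Transcript classes follow a later annotation than the one used for counting.

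In 8 members the leading transcript was of another class in both libraries. A retained-intron transcript took 85.7% and 89.7% of Mrps26, and a retained-intron transcript 44.5% and 71.0% of Mrpl21. Transcripts marked for nonsense-mediated decay led Mrpl58 (79.9% and 58.3%), Mrps11 (67.3% and 61.3%) and Mrpl3 (39.0% and 36.9%). Mrpl32 has 1 transcript in the tables, classed in the same way, so its class could not vary. Mrpl15 was led by a processed transcript (57.1% and 53.1%), and Mrps25 by a different retained-intron transcript in each library (58.6% and 58.8%).

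In Mrpl18, Mrpl51, Mrps14 and Mrps5 the class changed between libraries, from a coding transcript in replicate 1 to another class in replicate 2. In Mrps14 a decay transcript had 20.9% in replicate 1 and 53.1% in replicate 2, on 12.7 and 107 counts. In Mrps5 the coding transcript had 45.1% in replicate 1 and 22.3% in replicate 2, though it held 1913 of 2247 and 2060 of 2974 counts. Mrpl48, Mrpl55 and Mrpl24 were led by different coding transcripts. These shares are of TPM, and the share of counts could differ: the decay transcript of Mrpl58 had 189 of 1033 and 172 of 1249 counts. In Mrps26 the retained-intron transcript led by counts as well, with 1097 of 2074 and 1462 of 2343.

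**Figure D5:**
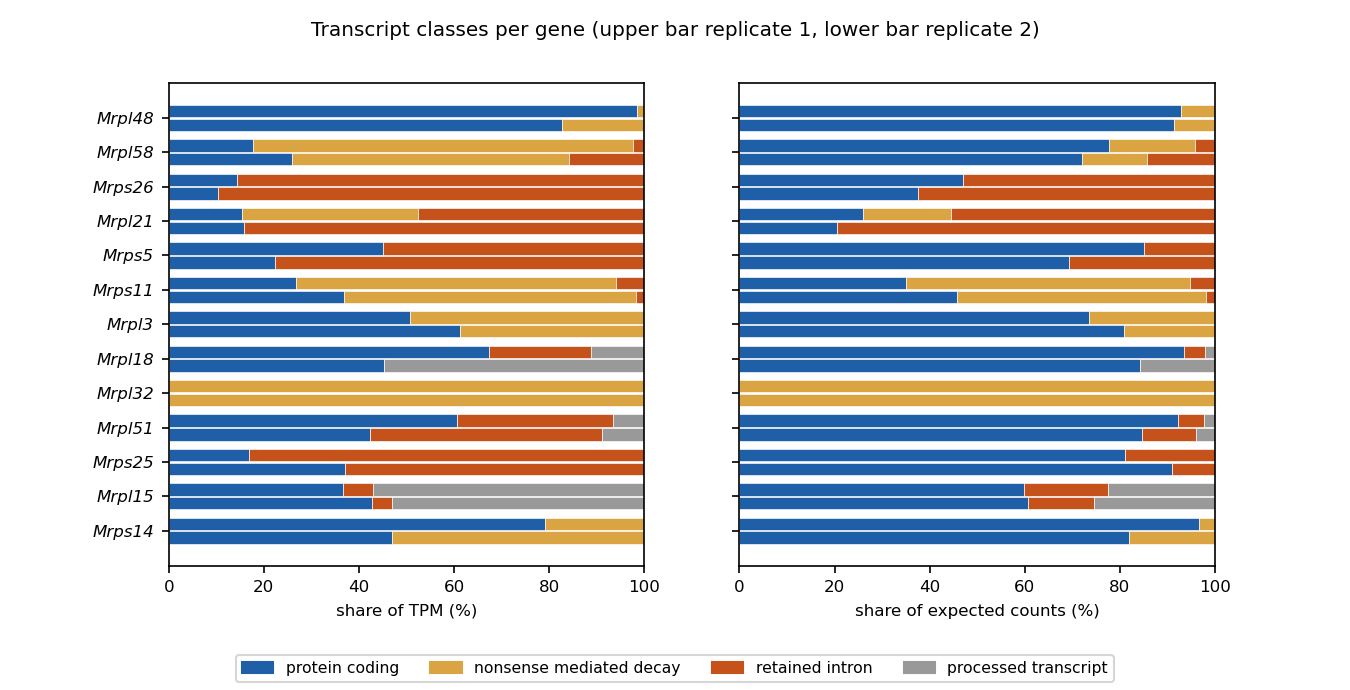
Share of TPM (left, %) and of expected counts (right, %) by transcript class for the 12 members led by a transcript that is not protein-coding in at least 1 library and for Mrpl48, with replicate 1 above replicate 2. Coding transcripts (blue) take a larger share of counts than of TPM in most of them, as in Mrps25, while Mrps26 and Mrpl21 keep large retained-intron shares on both scales.

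Some values are uncertain because reads were shared. Counts over 0.005 from a whole number, a sign of reads divided between genes, were found in 7 members in at least 1 library: Mrpl48, Mrpl53, Mrpl23, Mrps5, Mrps34, Mrps18b and Mrps33 (5 members in replicate 1 and 6 in replicate 2, where 6.06% and 6.62% of coding genes at 1 TPM did). For Mrpl23 the processed pseudogene Mrpl23-ps1 had 566 and 320 counts beside 536 and 829 for the gene itself, and 25.96 and 6.8 TPM beside 17.3 and 12.6. Its share of the pair thus differed between libraries, and the split is uncertain. The TPM of Mrps18c lay below the interval deposited with it in both libraries, which held for 0.461% of 11725 coding genes at 1 TPM.

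A larger share of the members than of all coding genes starts next to an oppositely oriented gene. They lie on 17 chromosomes, with 11 on chromosome 11, 8 on chromosome 17 and 7 on chromosome 6. Of the 77, 33 (42.9%) start within 1000 nt of the start of a coding gene on the other strand, head to head with it, against 10.9% of 21461 nuclear coding genes and 15.5% of those at 1 TPM. Within 300 nt there were 22 (28.6%, against 10.9% of those at 1 TPM). These are 32 distinct pairs, since 2 members are paired with each other, and the gene bodies overlap in 14 of them. Taking any overlap with an opposite-strand coding gene, 22 members (28.6%, against 20.5%) had one, and since the sources used here do not say whether counting used strand, how reads of such pairs were assigned is unknown.

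Some partners known to act in mitochondria are named here as examples, picked after the list of partners was seen, and such partners were not counted. Distances between starts are given as negative where the gene bodies overlap. Mrpl46 and Mrps11 are each other's partner (−412 nt). Mrps12 is paired with Sars2, the mitochondrial seryl-tRNA synthetase (172 nt), Mrpl43 with Twnk, the mitochondrial DNA helicase (−779 nt), and Mrps27 with Ptcd2 (81 nt). Mrpl36 and Mrpl47 are paired with the respiratory chain genes Ndufs6 (−29 nt) and Ndufb5 (−615 nt). Other partners act elsewhere, such as Fau, for a cytosolic ribosomal protein, beside Mrpl49 (59 nt).

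The levels of paired genes divided much as for other coding genes. Of the 33 members with a partner, 11 had a partner that was higher in both libraries, where 34.8% of 1800 coding genes at 1 TPM with a measured partner did. For 19 members the partner was lower in both, where this held for 56.1%, and for 26 it reached 1 TPM in both, where this held for 78.4%. Single pairs could lie far apart. Twnk had 2.16 and 1.12 TPM where Mrpl43 had 28.5 and 18.9. Ndufb5 had 179 and 94.7 TPM where Mrpl47, among the lowest members, had 1.22 and 1.42. The 33 members with a partner had median levels of 12.4 and 8.23 TPM and the 44 without 10.5 and 8.96, so the order of the medians differed between libraries.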

How the data were processed

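For each library the authors deposited a gene table and a transcript table. Per the notes deposited with them, these rest on transcriptome alignments to mm10 with GENCODE M4. The names of the aligner and quantifier were not given in the sources used here. The expected counts the authors deposited are, per the file headers, estimates of fragments and can be fractional. The deposited TPM values divide them by effective length and sum to a fixed total over all rows, spike-ins included. A deposited percent column holds the share of a gene's TPM taken by each transcript. Symbols, classes and positions came from GENCODE M21 on the same build, matched by Ensembl identifier for 42462 of 43346 genes (98.0%). Promoter windows came from RefSeq (GRCm38.p6).

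Here, levels were log2(TPM + 0.1), and a list's level is the median over its genes. Ratios used expected counts rounded to whole numbers, nuclear coding genes averaging at least 10 counts, TMM scaling (edgeR 4.0.16, R 4.3.3) and a prior count of 2. DESeq2 1.42.0 size factors, total counts on mouse genes (53617723 and 76299141) and spike-in totals were alternatives. The ratio step was tested on simulated data. No p-value was computed. Reads carry no molecular identifiers, so counting errors cover counting only.

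The members and lists were chosen with earlier results of these data known. Named are the 6 highest and 6 lowest members of each subunit, the 5 largest ratios each way among those averaging at least 50 counts, the Mrps18 paralogues, members led by a non-coding or a changing transcript, and up to 3 highest and 2 lowest genes of other lists. Other names were chosen after their values were seen, as were the motifs, the printed windows and the pairing of neighbouring genes. Transcripts of unknown class under the later annotation stayed in gene totals.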

Additional observations from a re-analysis of the deposited data

How the results depend on the processing

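No paired analysis was possible because there is only 1 group. Ratios need both libraries and have no value without 1 of them. On the log2 scale the level of the members was 3.41. It was 5.49 with TPM rescaled over nuclear coding genes, 3.79 in CPM, 3.12 to 3.49 when either replicate was left out and 2.71 with principal transcripts only. The difference from the cytosolic set, −3.48, was −2.66 in CPM. The difference from the respiratory chain, −2.29, was −2.19 with a pseudocount of 1 and with posterior mean TPM, −2.38 among genes at a mean TPM of at least 1 and −1.28 in CPM. Both kept their sign in all of these. Conserved minus specific, −0.01, was −0.24 ± 0.16 in CPM and 0.28 ± 0.12 with transcripts of at least 100 nt effective length. Its direction thus depended on the setting. The limit on transcript length leaves the mitochondria-specific Mrpl52 at 0 TPM. Large minus small stayed between 0.01 and 0.37. It exceeded its SD in CPM (0.19 ± 0.11), with principal transcripts (0.30 ± 0.07) and with transcripts of at least 100 nt effective length (0.111 ± 0.098). Past 2-fold in scaled counts were 0 members, against 6 past 1.5-fold. Spike-in totals moved the log2 scaling between libraries from 0.51 to 0.41 and the members' median ratio from 0.09 to 0.19, and Mrpl14 (0.65) and Mrps16 (0.66) then passed 1.5-fold, which made 8. The settings on transcript length, principal transcripts, shares of counts and the 300 nt distance were chosen after seeing the data.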
